A study of Mus musculus with 16 samples.

Results

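The Nrf2 antioxidant response genes described here are 10 named genes of the mouse striatum, followed in 16 libraries. They were chosen by symbol, and all 10 are among the 19457 genes of the count table. All 10 passed the filter on low counts that left 18813 genes for testing. Nfe2l2 encodes Nrf2, a transcription factor that binds antioxidant response elements in DNA together with small Maf proteins. Keap1 encodes the adaptor that holds Nrf2 for ubiquitination. Oxidants or electrophiles that modify Keap1 let Nrf2 protein accumulate, so the pathway is switched on at the level of protein more than of Nfe2l2 RNA. The other 8 genes are classical targets. Slc7a11, Gclc, Gclm and Gsr take up cystine and make or recycle glutathione. Txnrd1, Prdx1 and Srxn1 belong to the thioredoxin and peroxiredoxin system, and Nqo1 encodes a quinone reductase. In brain the pathway is best known for its activity in astrocytes and other glia.

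Mice came in 2 genotypes. GS is taken to mean LRRK2 with the G2019S change, which the title of the series mentions, and the others are labelled WT. In each genotype striatum was taken intact, or 6 h, 3 d or 15 d after 0.8 µl of 500 mM ATP was injected into the striatum on 1 side, with 2 libraries for each of the 8 groups. Every injected group received ATP, so the needle, the injected volume and ATP itself cannot be told apart. The sources used here do not give the age or sex of the animals, nor how GS mice carry the change. The labels call the libraries biological replicates but do not say that each came from its own animal, so p-values measure the spread between these libraries. Total counts ran from 49220578 to 63948110 per library. Markers of striatal neurons summed to 4902 to 8114 CPM (read counts scaled to library size with TMM factors) over the 16 libraries. Markers of cortical neurons stood highest in 3 WT libraries, at 197 summed CPM in intact replicate 1, 117 in 6 h replicate 2 and 70.3 in 15 d replicate 1. The other 13 had 20.4 to 56.1.

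Levels between genes are compared as CPM per kilobase of annotated exons, a scale that divides by the length of all annotated exons together. Which of these exons the RNA held was not tested. In intact striatum the antioxidant enzymes Prdx1 (36.1 and 36.5 CPM per kilobase in GS, 39.3 and 40.9 in WT) and Srxn1 (36.5 and 40.6 in GS, 32.3 and 34.9 in WT) stood highest on this scale. Gclc followed (19.8 and 17.8 in GS, 19.4 and 18.97 in WT), then Keap1 (14.5 and 14.03 in GS, 12.96 and 12.9 in WT). The transcription factor gene itself was low, with 4.03 and 4.59 CPM per kilobase in GS and 4.01 and 4.39 in WT, and the lowest was the cystine transporter gene Slc7a11 (1.89 and 1.59 in GS, 1.67 and 2.04 in WT). Gsr and Txnrd1 lay between Keap1 and Nfe2l2, and Gclm and Nqo1 between Nfe2l2 and Slc7a11. The place of Slc7a11 depends on its exon length, 13922 bases, the longest of the 10. In CPM, intact Slc7a11 (22.2 to 28.4) stood above Nfe2l2 (15.2 to 17.4) and Nqo1 (4.17 to 4.98). The 4 intact libraries of Prdx1 and Srxn1 overlapped, so the order of these 2 is not resolved, while other neighbours in the order did not overlap.

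Promoter windows of 250 bases before to 50 bases after the annotated start (RefSeq, build GRCm38.p6, which is mm10) were on hand for 8 of the 10 genes, Gsr and Gclc not among them, and Txnrd1 had 3 starts. Windows were searched on both strands for the antioxidant response element core TGACNNNGC and for the AP-1 site TGAGTCA, whose reverse complement is TGACTCA and which can lie inside the element. The element core was in at least 1 window of 5 of the 8 genes, Nfe2l2, Gclm, Srxn1, Prdx1 and Txnrd1, against 16.3% of the 13628 genes of the count table that had a window. The AP-1 site was in 2 of the 8, Srxn1 and Prdx1, against 4.64% of those genes. As the genes were chosen by name for their part in the Nrf2 pathway, these shares are no result of these data. Of the wider list of other Nrf2 target genes described below, 22 had a window, 7 with the element core and 4 with the AP-1 site. Sites outside the windows were not searched. Windows of 4 genes are shown. Nfe2l2, Prdx1 and Slc7a11 were higher at 3 d and 15 d in both genotypes. Srxn1, which holds matches to both motifs as Prdx1 does, at different positions, fell at 15 d in both. Capitals mark matches to either motif, and each window is read 5′ to 3′ on the gene's strand.
Nfe2l2, chr2:75704614-75704913, minus strand: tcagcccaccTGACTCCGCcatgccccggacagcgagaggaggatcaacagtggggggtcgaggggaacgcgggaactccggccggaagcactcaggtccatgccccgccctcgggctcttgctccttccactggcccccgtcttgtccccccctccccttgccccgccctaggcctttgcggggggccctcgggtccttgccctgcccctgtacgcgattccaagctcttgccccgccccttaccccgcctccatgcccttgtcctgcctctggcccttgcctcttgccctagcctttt
Prdx1, chr4:116685349-116685648, plus strand: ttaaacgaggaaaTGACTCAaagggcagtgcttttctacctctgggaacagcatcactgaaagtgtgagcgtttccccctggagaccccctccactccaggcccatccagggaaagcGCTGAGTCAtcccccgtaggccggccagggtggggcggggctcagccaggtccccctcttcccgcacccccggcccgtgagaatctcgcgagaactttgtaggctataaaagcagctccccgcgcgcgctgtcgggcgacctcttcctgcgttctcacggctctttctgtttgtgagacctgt
Srxn1, chr2:152105274-152105573, plus strand: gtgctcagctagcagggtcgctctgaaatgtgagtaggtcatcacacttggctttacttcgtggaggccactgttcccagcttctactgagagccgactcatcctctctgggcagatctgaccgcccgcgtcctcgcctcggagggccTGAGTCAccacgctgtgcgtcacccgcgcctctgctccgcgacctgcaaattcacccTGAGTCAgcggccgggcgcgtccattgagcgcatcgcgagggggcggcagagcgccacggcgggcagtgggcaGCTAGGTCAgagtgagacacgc
Slc7a11, chr3:50443564-50443863, minus strand: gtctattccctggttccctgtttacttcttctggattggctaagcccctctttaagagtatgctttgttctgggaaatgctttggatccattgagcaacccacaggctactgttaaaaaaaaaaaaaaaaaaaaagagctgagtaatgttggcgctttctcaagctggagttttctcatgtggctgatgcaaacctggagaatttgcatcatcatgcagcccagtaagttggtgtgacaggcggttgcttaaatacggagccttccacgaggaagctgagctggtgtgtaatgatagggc
In Prdx1 the AP-1 match at -131 lies inside the element core match that begins at -133, and a further AP-1 match begins at -237. In Srxn1 the AP-1 matches begin at -102 and -45 and the element core at 29, counted from the start with no zero. In Nfe2l2 the element core begins at -240, and the Slc7a11 window, which belongs to a start inside the annotated span of the gene, has no match to these letters. A match is a run of letters and does not show that a factor bound there.

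After ATP the 10 genes did not move as 1 block. At 6 h few members passed, with small changes. At 3 d and 15 d Nfe2l2, Slc7a11 and Prdx1 rose in both genotypes. Keap1 fell at 3 d in both and at 15 d in GS, and Srxn1 fell at 15 d in both and at 3 d in GS. At 6 h, 2 of 10 members rose in GS, Gclc and Slc7a11, where 7.47% of all genes tested rose at an adjusted p under 0.05. In WT 2 of 10 rose at 6 h, Gclc and Txnrd1, beside 2.54% of all genes. No member fell at 6 h in either genotype, where 6.37% of all genes fell in GS and 1.55% in WT (either direction 13.8% and 4.09%). At 3 d, 5 of 10 rose and 2 fell in GS (all genes 18.6% and 16.4%, together 35.1%), and 4 rose and 1 fell in WT (all genes 14.7% and 12.7%, together 27.4%). At 15 d, 3 rose and 2 fell in GS (all genes 19.4% and 17.6%, together 37.1%), and 4 rose and 1 fell in WT (all genes 14.2% and 11.2%, together 25.4%). As 1 gene is 10% of the members, these counts give no result about the group as a whole. The median log2 fold change of the members was 0.14 in GS and 0.25 in WT at 6 h, 0.25 and 0.16 at 3 d, and 0.08 and 0.24 at 15 d, where the median of all genes lay between -0.023 and 0.0055.

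**Figure D1:**
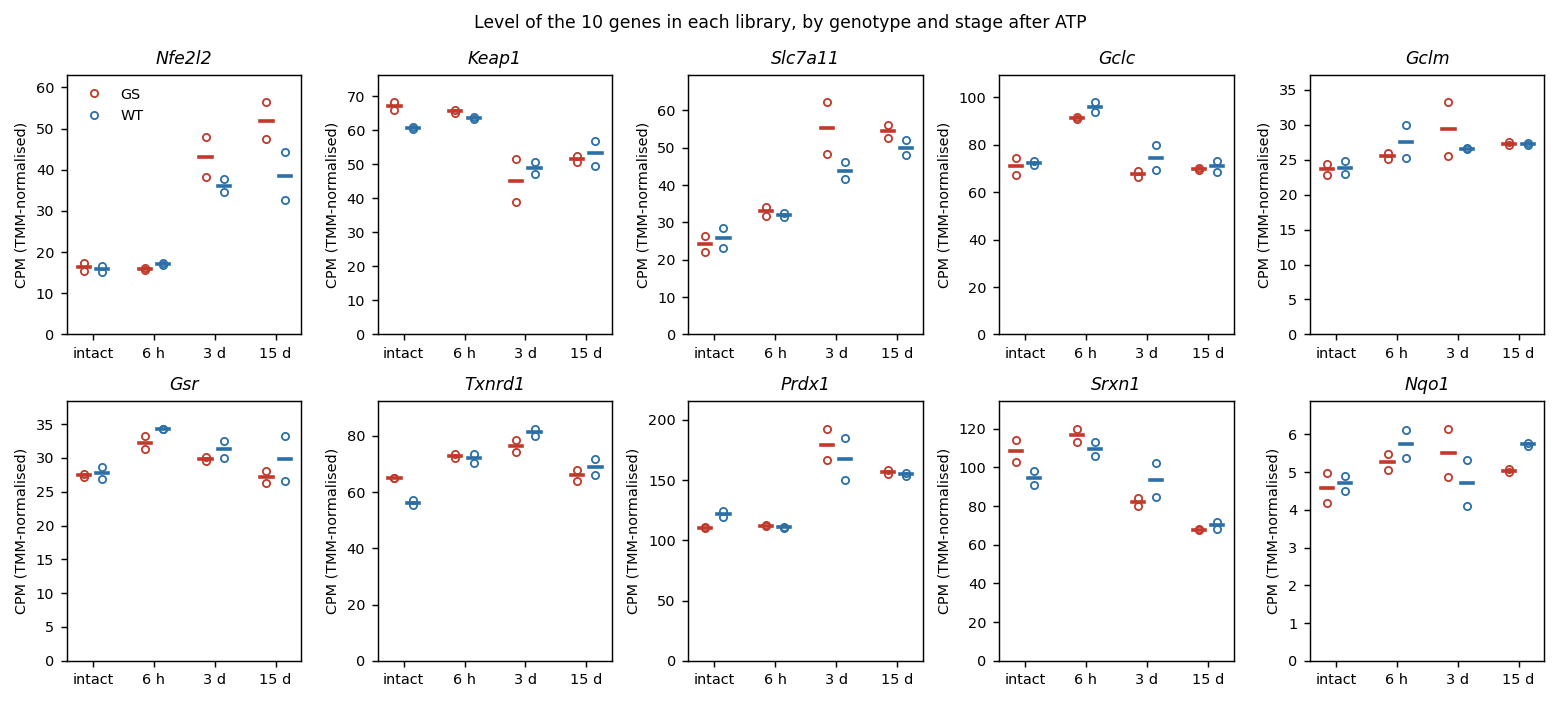
TMM-normalised CPM of each of the 10 genes (y axis, from 0) in intact striatum and 6 h, 3 d and 15 d after ATP (x axis), with GS left of WT, open circles for the 2 libraries of a group and a bar for their mean. Nfe2l2 stands at 15.2 to 17.4 CPM in the 8 intact and 6 h libraries and at 32.7 to 56.4 CPM in the 8 libraries at 3 d and 15 d, while Srxn1 at 15 d is below every intact and 6 h library.

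Nfe2l2, the gene of Nrf2 (NCBI Gene 18024, chromosome 2, positions 75675513 to 75704663, minus strand), had 15.3 and 17.4 CPM in GS and 15.2 and 16.7 CPM in WT intact striatum. It had 15.8 and 16.2 CPM in GS and 16.98 and 17.3 CPM in WT at 6 h. It had 38.3 and 47.9 CPM in GS and 34.5 and 37.6 CPM in WT at 3 d, and 47.4 and 56.4 CPM in GS and 32.7 and 44.3 CPM in WT at 15 d. All 8 late libraries stood above all 8 intact and 6 h libraries. At 6 h it did not pass in GS (-0.032 ± 0.14, log2 fold change against intact ± SE from edgeR, 2 libraries per group) or in WT (0.10 ± 0.14). At 3 d it rose in GS (1.40 ± 0.14, edgeR adjusted p = 1.13e-05) and in WT (1.18 ± 0.14, edgeR adjusted p = 7.01e-05). At 15 d it rose by 1.66 ± 0.14 in GS (edgeR adjusted p = 2.79e-06) and by 1.27 ± 0.14 in WT (edgeR adjusted p = 4.39e-05). In order of mean CPM the groups ran GS 15 d, GS 3 d, WT 15 d, WT 3 d, and then the intact and 6 h groups. Neighbours among the 4 late groups overlapped, as did those among the 4 early ones, and a gap lay between WT 3 d and the early groups. Averaged over genotypes, 3 d stood 1.25 ± 0.099 above 6 h on the log2 scale (edgeR adjusted p = 2.8e-07), and 15 d against 3 d did not pass (0.18 ± 0.096, edgeR adjusted p = 0.232). Without WT 15 d replicate 1 that last difference passed (0.28 at adjusted p = 0.0454).

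Keap1, the gene of the Nrf2 inhibitor (NCBI Gene 50868, chromosome 9, positions 21229730 to 21239332, minus strand), went the other way. It had 68.2 and 65.8 CPM in GS and 60.8 and 60.4 CPM in WT intact striatum. It had 65.2 and 65.9 CPM in GS and 63.3 and 63.8 CPM in WT at 6 h. At 3 d it had 51.5 and 38.97 CPM in GS and 47.2 and 50.6 CPM in WT, and at 15 d 50.8 and 52.5 CPM in GS and 49.6 and 56.9 CPM in WT. Late libraries of both genotypes lay below every intact library, and GS 3 d replicate 2 was the lowest of the 16. Keap1 fell at 3 d in GS (-0.57 ± 0.10, edgeR adjusted p = 0.000640) and in WT (-0.31 ± 0.10, edgeR adjusted p = 0.0335), and at 15 d in GS (-0.38 ± 0.10, edgeR adjusted p = 0.00887). In WT at 15 d it did not pass (-0.19 ± 0.10, edgeR adjusted p = 0.187). In WT at 3 d the change needed every library compared. Its adjusted p was 0.133 and 0.0965 without WT intact replicates 1 and 2, and 0.168 and 0.0639 without WT 3 d replicates 1 and 2, with log2 fold changes of -0.36 to -0.25. With the 3 cortical-marker-rich WT libraries omitted it was -0.31 at adjusted p = 0.149. In GS at 15 d the fall no longer passed without GS intact replicate 1 (-0.35 at adjusted p = 0.0540) or GS 15 d replicate 1 (-0.35 at adjusted p = 0.0589). Between 3 d and 15 d the difference averaged over genotypes was 0.16 ± 0.071, which passed without GS 3 d replicate 1 (0.26 at adjusted p = 0.00853). A noncoding gene on the opposite strand overlaps Keap1, and since the use of strand in counting is not given, its reads cannot be told apart from those of Keap1.

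**Figure D2:**
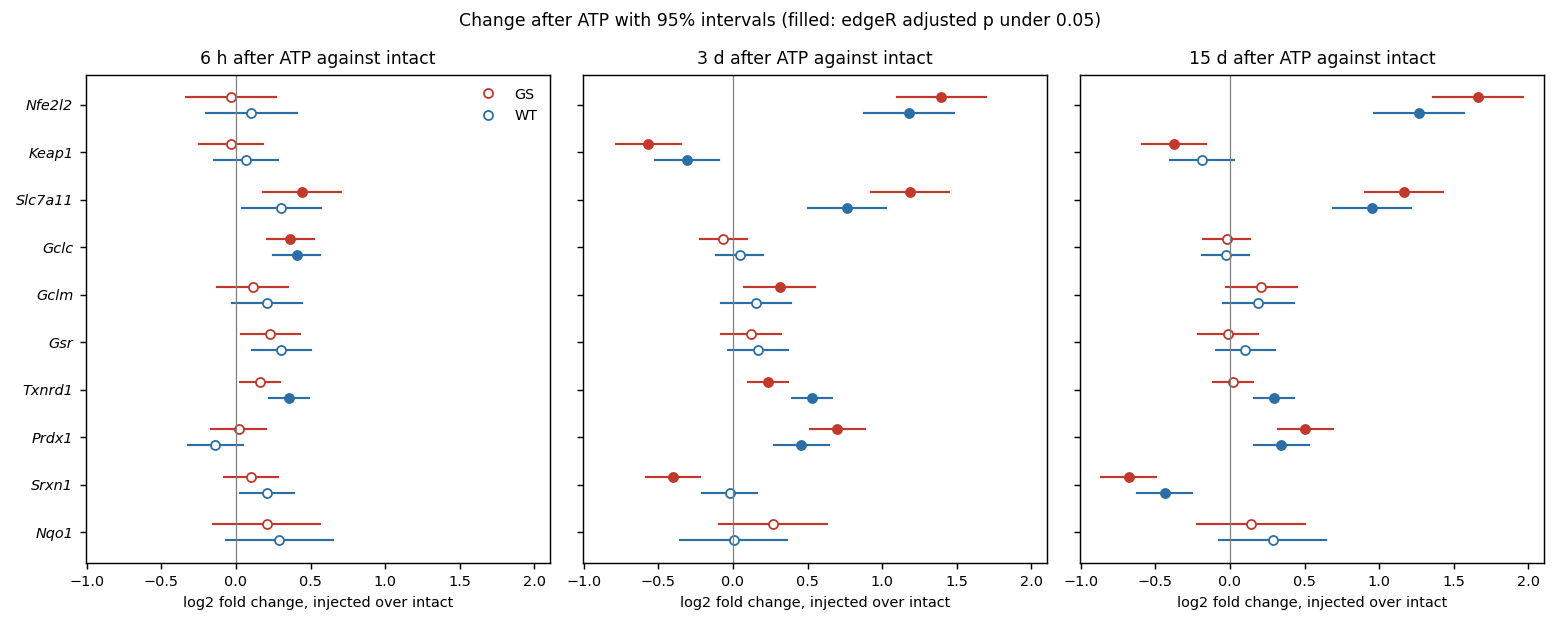
Log2 fold change of each gene after ATP against intact striatum of the same genotype (x axis) at 6 h, 3 d and 15 d, GS above WT, with 95% intervals and filled circles where the edgeR adjusted p is under 0.05. The intervals of Nfe2l2, Slc7a11 and Prdx1 at 3 d and 15 d lie above 0 in both genotypes, and those of Srxn1 at 15 d lie below 0.

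Of the glutathione genes, Slc7a11, which encodes the cystine and glutamate exchanger xCT (NCBI Gene 26570, chromosome 3, positions 50364936 to 50499087, minus strand), changed most. It had 26.3 and 22.2 CPM in GS and 23.2 and 28.4 CPM in WT intact striatum. It had 34.2 and 31.7 CPM in GS and 31.4 and 32.4 CPM in WT at 6 h. It then had 48.3 and 62.1 CPM in GS and 46.2 and 41.5 CPM in WT at 3 d and 55.98 and 52.7 CPM in GS and 52.1 and 47.9 CPM in WT at 15 d. Every 6 h library was above every intact library, and every late library was above every 6 h library. At 6 h the gene rose in GS (0.44 ± 0.12, edgeR adjusted p = 0.0270) and did not pass in WT (0.30 ± 0.12, edgeR adjusted p = 0.177). At 3 d it rose by 1.19 ± 0.12 in GS and 0.76 ± 0.12 in WT (edgeR adjusted p = 1.29e-05 and 0.000525), and at 15 d by 1.17 ± 0.12 in GS and 0.95 ± 0.12 in WT (edgeR adjusted p = 1.03e-05 and 0.000125). The early rise in GS no longer passed on omission of GS intact replicate 2 (0.32 at adjusted p = 0.240). Omission of GS 6 h replicate 1 gave 0.39 at adjusted p = 0.168, and omission of its replicate 2 gave 0.50 at adjusted p = 0.0730. The late calls held in every alternative fit. Annotated genes overlap the span of Slc7a11 on both strands, among them Gm37692, a processed pseudogene, and Gm37498 on its own strand. The overlapping genes are not in the count table, and the use of strand in counting is not given. Any reads of theirs within its exons therefore cannot be told apart from those of Slc7a11.

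Gclc and Gclm encode the catalytic and modifier subunits of glutamate-cysteine ligase, which makes the first step of glutathione synthesis. Gclc (NCBI Gene 14629, chromosome 9, positions 77754535 to 77794489, plus strand) had 74.5 and 67.2 CPM in GS and 73.2 and 71.4 CPM in WT intact striatum. It had 91.5 and 90.8 CPM in GS and 97.8 and 93.8 CPM in WT at 6 h. It had 69.1 and 66.4 CPM in GS and 79.8 and 69.3 CPM in WT at 3 d and 70.2 and 69.4 CPM in GS and 73.3 and 68.6 CPM in WT at 15 d. The 4 libraries at 6 h were the highest of the 16, and the later ones overlapped the intact ones. Gclc rose at 6 h and passed at neither later time. The rise was 0.36 ± 0.073 in GS (edgeR adjusted p = 0.00546) and 0.41 ± 0.073 in WT (edgeR adjusted p = 0.00928), and 3 d stood below 6 h averaged over genotypes (-0.40 ± 0.052, edgeR adjusted p = 2.25e-05). The log2 fold change at 6 h stayed between 0.28 and 0.45 in all alternative fits. Its adjusted p in GS was 0.0810 without GS intact replicate 2. In WT it was 0.0671, 0.0610, 0.0699 and 0.0713 without WT intact replicates 1 and 2 and WT 6 h replicates 1 and 2, and 0.228 with the 3 cortical-marker-rich WT libraries omitted.

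The modifier subunit gene Gclm (NCBI Gene 14630, chromosome 3, positions 122245487 to 122267215, plus strand) had 22.8 and 24.4 CPM in GS and 22.9 and 24.8 CPM in WT intact striatum. It had 25.02 and 25.9 CPM in GS and 25.2 and 29.9 CPM in WT at 6 h. It had 25.5 and 33.2 CPM in GS and 26.4 and 26.6 CPM in WT at 3 d and 27.6 and 27.1 CPM in GS and 27.1 and 27.3 CPM in WT at 15 d. Every injected library was above every intact library, by little. Gclm passed only in GS at 3 d (0.31 ± 0.11, edgeR adjusted p = 0.0394), with 0.15 ± 0.11 in WT, and GS 3 d replicate 2 decided that call: without it the value was 0.11 at adjusted p = 0.483. The call was also lost without GS intact replicate 1 or 2, GS 6 h replicate 1 or 2 or GS 15 d replicate 1 or 2 (adjusted p between 0.0508 and 0.190). Limma-voom gave an adjusted p of 0.0536, and a fit of only these groups 0.0982. A processed pseudogene, Gm6061, lies within Gclm on the same strand and has counts of its own in the table, so reads may be shared between them. Gsr, the gene of glutathione reductase (NCBI Gene 14782, chromosome 8, positions 33653238 to 33698162, plus strand), had 27.2 and 27.6 CPM in GS and 26.9 and 28.6 CPM in WT intact striatum. It had 31.2 and 33.2 CPM in GS and 34.3 and 34.3 CPM in WT at 6 h. The 6 h libraries were above all intact ones, and at 3 d and 15 d it had 26.3 to 33.2 CPM over 8 libraries. Gsr did not pass at any time in edgeR, with 0.23 ± 0.093, edgeR adjusted p = 0.116 in GS at 6 h and 0.30 ± 0.093, edgeR adjusted p = 0.0813 in WT at 6 h. In WT at 6 h it passed with DESeq2 (adjusted p = 0.0374), with only these groups fitted (0.0315) and without WT 15 d replicate 1 or 2 (0.0325 and 0.0319). In GS at 6 h it passed with only these groups (0.0491) and without WT 15 d replicate 1 or 2 (0.0472 and 0.0464). Between 3 d and 15 d it passed without WT 15 d replicate 1 (-0.18 at adjusted p = 0.0475).

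In the thioredoxin and peroxiredoxin system, Prdx1 encodes a peroxiredoxin that reduces hydrogen peroxide, Srxn1 encodes sulfiredoxin, which repairs overoxidised peroxiredoxins, and Txnrd1 encodes the cytosolic thioredoxin reductase. Prdx1 (NCBI Gene 18477, chromosome 4, positions 116685599 to 116700000, plus strand) had 109.8 and 111 CPM in GS and 119.7 and 124 CPM in WT intact striatum. It had 112 and 112 CPM in GS and 110.5 and 111 CPM in WT at 6 h. It had 166 and 193 CPM in GS and 150.3 and 185 CPM in WT at 3 d and 155 and 159 CPM in GS and 153 and 156 CPM in WT at 15 d. The 8 late libraries, at 150.3 to 192.6 CPM, stood above the 8 intact and 6 h libraries at 109.8 to 124 CPM. At 6 h it passed neither in GS (0.02 ± 0.087) nor in WT (-0.14 ± 0.087). It rose by 0.70 ± 0.087 in GS and 0.46 ± 0.086 in WT at 3 d (edgeR adjusted p = 4.38e-05 and 0.00156), and by 0.51 ± 0.087 in GS and 0.34 ± 0.086 in WT at 15 d (edgeR adjusted p = 0.000421 and 0.00994). In WT at 15 d it no longer passed on omission of WT intact replicate 1 (0.32 at adjusted p = 0.0798), of WT 15 d replicate 2 (0.33 at adjusted p = 0.0616), or of the 3 cortical-marker-rich WT libraries (0.33 at adjusted p = 0.145). The step between 3 d and 15 d, -0.15 ± 0.061, edgeR adjusted p = 0.104, passed without GS 3 d replicate 1 (-0.21 at adjusted p = 0.0373). The same held on omission of WT 3 d replicate 1 (-0.23 at adjusted p = 0.0189).

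Srxn1 (NCBI Gene 76650, chromosome 2, positions 152105524 to 152111376, plus strand), whose product acts on peroxiredoxins, did not follow Prdx1. It had 103 and 114 CPM in GS and 91.1 and 98.3 CPM in WT intact striatum. It had 120 and 113 CPM in GS and 106 and 113 CPM in WT at 6 h. At 3 d it had 84.3 and 80.1 CPM in GS and 102 and 84.5 CPM in WT, and at 15 d 68 and 67.7 CPM in GS and 68.02 and 71.9 CPM in WT. The 4 libraries at 15 d were the lowest of the 16. Srxn1 did not pass at 6 h in GS (0.10 ± 0.085) or WT (0.21 ± 0.086), and at 3 d it fell in GS (-0.40 ± 0.086, edgeR adjusted p = 0.00230) with -0.023 ± 0.086 in WT. At 15 d it fell in both, by 0.68 ± 0.086 in GS (edgeR adjusted p = 4.27e-05) and by 0.44 ± 0.086 in WT (edgeR adjusted p = 0.00221) on the log2 scale. Averaged over genotypes, the log2 difference was -0.37 ± 0.061 for 3 d minus 6 h and -0.35 ± 0.061 for 15 d minus 3 d (edgeR adjusted p = 0.000168 and 0.00290). These calls held in every alternative fit. The Srxn1 and Prdx1 windows printed above hold matches to both motifs, but at different positions. In Prdx1 an AP-1 match lies inside a match to the element core as searched, TGACNNNGC, and in Srxn1 none does. The Srxn1 AP-1 match at -45 is followed by GC, so it departs from that core only in having G for C after TGA. Other forms of the element were not searched, so no difference between the genes is drawn from this. The part of these matches in the changes was not tested.

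Txnrd1 (NCBI Gene 50493, chromosome 10, positions 82833951 to 82897724, plus strand) had 65.1 and 64.98 CPM in GS and 55.3 and 57.3 CPM in WT intact striatum. It had 73.5 and 72.2 CPM in GS and 70.2 and 73.7 CPM in WT at 6 h. It had 74.4 and 78.7 CPM in GS and 82.6 and 79.9 CPM in WT at 3 d and 63.99 and 68.02 CPM in GS and 66.2 and 71.7 CPM in WT at 15 d. In intact striatum both GS libraries were above both WT libraries, a difference that did not pass over all genes. In WT it rose at 6 h, 3 d and 15 d by 0.35 ± 0.063, 0.53 ± 0.063 and 0.29 ± 0.063 (edgeR adjusted p = 0.00841, 6.9e-05 and 0.00380). In GS it rose at 3 d (0.23 ± 0.063, edgeR adjusted p = 0.00953) and did not pass at 6 h (0.16 ± 0.063, edgeR adjusted p = 0.0987) or 15 d (0.021 ± 0.063). Averaged over genotypes 15 d stood below 3 d (-0.23 ± 0.044, edgeR adjusted p = 0.00553), and 3 d stood above 6 h by 0.12 ± 0.044, edgeR adjusted p = 0.0315. The early rise in WT no longer passed on omission of WT intact replicate 1 (0.33 at adjusted p = 0.0857), of WT 6 h replicate 2 (0.32 at adjusted p = 0.114), or of the 3 cortical-marker-rich WT libraries (0.29 at adjusted p = 0.332). That at 15 d needed WT 15 d replicate 2 (0.23 at adjusted p = 0.0529 in its absence). In GS the rise at 3 d did not pass without GS intact replicate 2 (0.23 at adjusted p = 0.0543), without GS 3 d replicate 2 (0.19 at adjusted p = 0.0739) and with only these groups fitted (0.24 at adjusted p = 0.0538). The step between 6 h and 3 d did not pass without GS 6 h replicate 1 or 2, WT 6 h replicate 1, GS 3 d replicate 2 or WT 3 d replicate 1 (adjusted p between 0.0618 and 0.113), with a cortical marker covariate (0.127) or with only these groups (0.0557). Eid3 lies within Txnrd1 on the same strand and a noncoding gene overlaps it on the other, and both have counts in the table.

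Nqo1, often used as a readout of Nrf2 activity (NCBI Gene 18104, chromosome 8, positions 107388225 to 107403205, minus strand), was the least abundant of the 10 in CPM and did not pass in any comparison. It had 4.97 and 4.17 CPM in GS and 4.51 and 4.90 CPM in WT intact striatum. It had 5.49 and 5.06 CPM in GS and 5.39 and 6.12 CPM in WT at 6 h. It had 4.88 and 6.15 CPM in GS and 4.11 and 5.31 CPM in WT at 3 d and 4.999 and 5.08 CPM in GS and 5.69 and 5.78 CPM in WT at 15 d. All 6 h and 15 d libraries lay above all intact ones by little, and the 3 d libraries overlapped every other stage. The whole span over 16 libraries was 4.11 to 6.15 CPM. The log2 fold change against intact was 0.21 ± 0.17 in GS and 0.29 ± 0.17 in WT at 6 h, 0.27 ± 0.17 and 0.0046 ± 0.17 at 3 d, and 0.14 ± 0.17 and 0.29 ± 0.17 at 15 d. The 95% intervals at 15 d ran -0.22 to 0.50 in GS and -0.073 to 0.65 in WT, so a change the size of that of Nfe2l2 lies outside them. Counts of Nqo1 were 240 to 345 per library.

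Over the steps in time, averaged over genotypes, 4 members rose and 3 fell between 6 h and 3 d (all genes 24.6% and 24.8%, together 49.3%), with Nfe2l2, Prdx1, Slc7a11 and Txnrd1 higher and Keap1, Gclc and Srxn1 lower at 3 d. Between 3 d and 15 d none rose and 2 fell (all genes 6.76% and 7.07%, together 13.8%), Srxn1 and Txnrd1. Across the 16 libraries, Pearson r on log2 CPM between pairs of members ran from -0.915 to 0.917 over 45 pairs. Nfe2l2 went with Prdx1 (r = 0.917) and Slc7a11 (r = 0.911) and against Srxn1 (r = -0.838) and Keap1 (r = -0.829). These r values are descriptions over 16 libraries that share their stage, with no test.

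Between genotypes no member differed in edgeR at any stage, in the average over stages or in its response to ATP. Of 40 values for GS against WT at the 4 stages, 0 passed and 4 had an unadjusted p under 0.05. For comparison, 2056 of all 18813 genes had an unadjusted edgeR p under 0.05 without injury. That count was 1285 genes 6 h after ATP, 1552 after 3 d and 915 after 15 d. Over all 18813 genes 0.0159% passed without injury, and after it 0.00532% at 6 h, 0.0106% at 3 d and 0.00532% at 15 d. DESeq2 and limma-voom also called 0 members at each stage. The lowest adjusted p was that of Txnrd1 in intact striatum, with 65.1 and 64.98 CPM in GS against 55.3 and 57.3 CPM in WT (0.21 ± 0.063, edgeR adjusted p = 0.296). Nfe2l2 at 15 d had the largest difference, 47.4 and 56.4 CPM in GS against 32.7 and 44.3 CPM in WT (0.43 ± 0.14, edgeR adjusted p = 0.969, 95% interval 0.14 to 0.72). Slc7a11 at 3 d had 48.3 and 62.1 CPM in GS against 46.2 and 41.5 CPM in WT (0.33 ± 0.12, edgeR adjusted p = 0.550). In these last comparisons both GS libraries were above both WT libraries, and none of the differences passed over all genes. Markers of phagocytic myeloid cells moved with the Nfe2l2 difference, with a summed 774 to 1207 CPM in GS against 314 to 768 CPM in WT at 15 d, and their part in it was not tested. Averaged over the 4 stages, 0 of 10 passed in edgeR, DESeq2 or limma-voom, and 0.0106% of all genes passed in edgeR. Unadjusted edgeR p for this average was under 0.05 for 1 of 10 members and for 1857 of all 18813 genes. The differences ran from -0.078 for Gsr to 0.16 for Nfe2l2, with 95% intervals that together ran -0.21 to 0.31.

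The response of GS minus that of WT was tested for each member at each time, and 0 of 30 values passed in edgeR or limma-voom. Of all genes 0.0106% passed in edgeR at 6 h, 0% at 3 d and 0% at 15 d. Unadjusted edgeR p was under 0.05 for 5 of the 30 values. Among all 18813 genes it was under 0.05 for 1772 at 6 h, 1866 at 3 d and 1028 at 15 d. DESeq2 gave no call among the 11 values for which it returned an adjusted p. At 3 d the largest differences were those of Slc7a11 (0.42 ± 0.17, edgeR adjusted p = 0.463), Srxn1 (-0.38 ± 0.12, edgeR adjusted p = 0.439) and Txnrd1 (-0.29 ± 0.088, edgeR adjusted p = 0.439). Nfe2l2 gave 0.22 ± 0.20 at 3 d and 0.39 ± 0.20 at 15 d, with a 95% interval of -0.027 to 0.81 at 15 d. Where a gene passed in 1 genotype and not in the other, as Srxn1 at 3 d or Txnrd1 at 6 h, the difference between genotypes therefore was not shown.

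**Figure D3:**
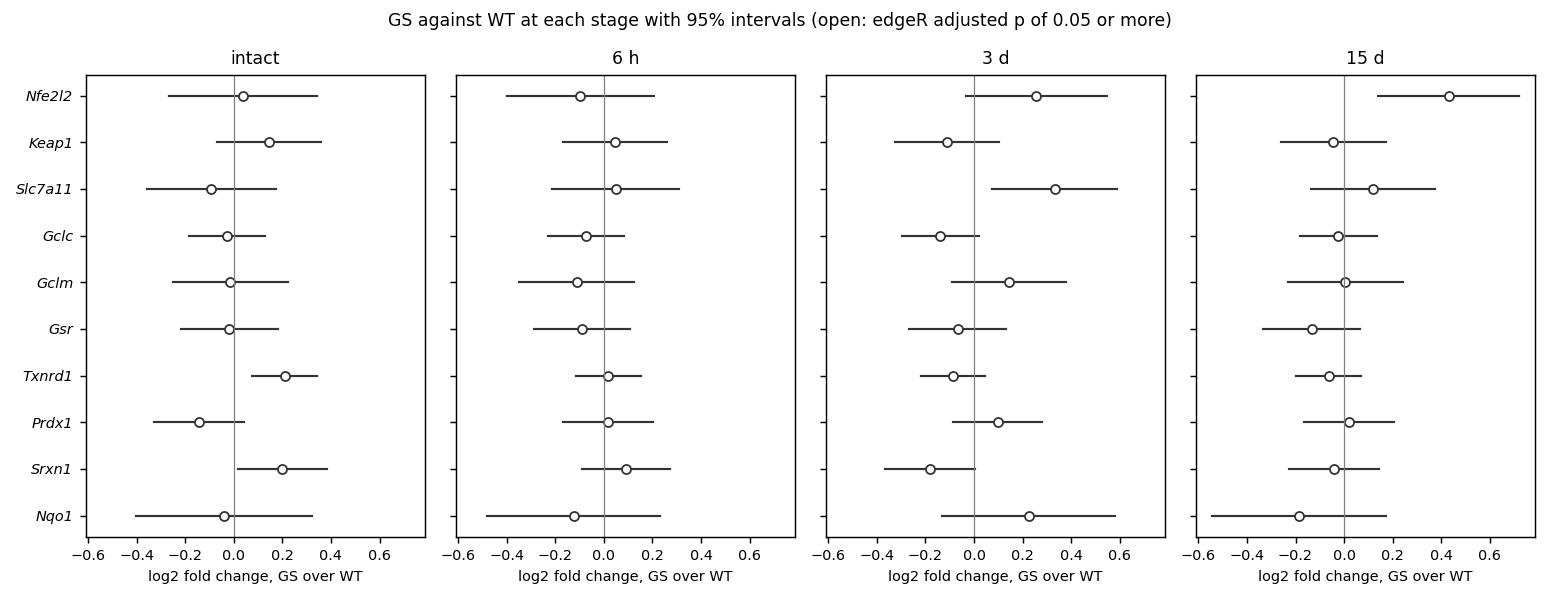
Log2 fold change of GS over WT (x axis) for each gene at the 4 stages, with 95% intervals and open circles because no edgeR adjusted p was under 0.05. The intervals that leave 0 out are those of Txnrd1 and Srxn1 in intact striatum, Slc7a11 at 3 d and Nfe2l2 at 15 d, before adjustment over all genes.

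A wider list of 25 other Nrf2 target genes, all in the table and tested, gave 1 that rose in GS at 6 h, where 7.47% of all genes rose, and 3 in WT (2.54%), and no gene of the list fell at 6 h. At 3 d, 11 rose and 4 fell in GS (all genes 18.6% and 16.4%) and 10 rose and 1 fell in WT (14.7% and 12.7%). At 15 d, 11 rose and 3 fell in GS (19.4% and 17.6%) and 10 rose and 1 fell in WT (14.2% and 11.2%). The median log2 fold change was 0.25 in GS and 0.27 in WT at 3 d, and 0.31 and 0.24 at 15 d. Hmox1, which encodes a haem oxygenase, had 34.2 and 50.3 CPM in GS and 45.5 and 39.7 CPM in WT at 3 d, against 3.92 and 4.65 CPM in intact GS and 3.53 and 4.62 CPM in intact WT. It rose by 3.30 ± 0.50 in GS and 3.39 ± 0.51 in WT at 3 d, and by 1.98 ± 0.49 and 1.53 ± 0.50 at 15 d. Ftl1, the ferritin light chain gene, rose by 1.58 ± 0.18 in GS and 1.31 ± 0.18 in WT at 3 d, and the membrane glutathione transferase gene Mgst1 by 0.66 ± 0.13 and 0.86 ± 0.13. Ugdh, whose product makes UDP-glucuronate, rose by 0.77 ± 0.087 in GS and 0.55 ± 0.087 in WT at 3 d, and the glutathione transferase gene Gstm1 by 0.35 ± 0.11 and 0.66 ± 0.11. Against these, the carbonyl reductase gene Cbr3 (-0.44 ± 0.099), the autophagy adaptor gene Sqstm1 (-0.31 ± 0.063), the transporter gene Abcc1 (-0.31 ± 0.07) and Sod1, of superoxide dismutase (-0.31 ± 0.089), fell in GS at 3 d, and Abcc1 alone fell in WT (-0.25 ± 0.07). At 15 d Cbr3 (-0.71 ± 0.1), Abcc1 (-0.33 ± 0.07) and Sqstm1 (-0.25 ± 0.063) fell in GS, and Abcc1 (-0.21 ± 0.07) in WT.

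At 6 h, genes of this wider list that rose were Osgin1 in GS (1.49 ± 0.42, edgeR adjusted p = 0.0287, 1.18 and 1.18 CPM at 6 h against 0.598 and 0.239 CPM intact) and, in WT, Hmox1 (2.40 ± 0.50, edgeR adjusted p = 0.0183), the epoxide hydrolase gene Ephx1 (0.61 ± 0.11, edgeR adjusted p = 0.00743) and Cbr3 (0.44 ± 0.099, edgeR adjusted p = 0.0254). For Hmox1 at 6 h WT replicate 2 stood apart, with 7.49 and 35.6 CPM in WT and 11.4 and 7.95 CPM in GS. That library is also among the WT libraries highest in cortical markers (117 summed CPM). The alternative fits were read for the members only, so these calls of the wider list were not checked in them. Cbr3 and Ephx1 were then lower at 3 d than at 6 h averaged over genotypes (-0.54 ± 0.07 and -0.50 ± 0.074), as Gclc was. Markers of several cell types moved with the 6 h libraries. Erythrocyte markers, 4 of 5 in the table, all rose in both genotypes, with summed CPM of 27.7 to 58.9 at 6 h against 3.34 to 5.82 in intact striatum. Homeostatic microglia markers summed to 302 to 335 CPM at 6 h against 437 to 459.9 CPM intact, and 4 of 10 fell in GS and 3 of 10 in WT. Phagocytic myeloid markers summed to 24.6 to 38.05 CPM against 16.1 to 18.4 CPM, and 2 of the 6 in the table rose in each genotype. In GS, 4 of 6 endothelial markers fell (55.4 to 70.5 summed CPM at 6 h against 96.2 to 99.2 intact), as did 4 of 8 striatal neuron markers (6300 to 6588 against 7177 to 8114). In WT no gene of these 2 lists passed, with 61.03 to 61.5 against 66.1 to 79.02 summed CPM for endothelial markers and 6767 to 6883 against 6344 to 6878 for striatal neurons. Of astrocyte markers 1 of 8 rose in each genotype, with 3957 to 4233 summed CPM at 6 h against 4322 to 4501 intact. Of all genes, 7.47% rose and 6.37% fell at 6 h in GS, and 2.54% rose and 1.55% fell in WT. Fewer genes passed in WT in general (769, against 2605 in GS), so these marker counts do not show a difference between genotypes. The part of these cells in the 6 h values was not tested.

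Among 9 regulators and partners of Nrf2, the gene of the small Maf protein Maff rose at every time in both genotypes (2.27 ± 0.40 in GS and 1.92 ± 0.45 in WT at 6 h, 1.91 ± 0.41 and 3.02 ± 0.43 at 3 d). Levels of Maff were low, with intact means of 0.787 CPM in GS and 0.461 CPM in WT against 3.81 and 1.745 CPM at 6 h. Bach1, which encodes a repressor that competes with Nrf2 for its DNA elements, had 22.3 and 27.2 CPM in GS and 21.5 and 21.7 CPM in WT at 3 d, against 13.9 and 11.8 CPM in intact GS and 12.4 and 14.4 CPM in intact WT. Bach1 rose by 0.67 ± 0.11 in GS and 0.47 ± 0.11 in WT at 6 h, by 0.95 ± 0.11 and 0.69 ± 0.11 at 3 d and by 0.84 ± 0.11 and 0.55 ± 0.11 at 15 d, so the activator and the repressor genes were both higher late after injury. Mafg, of another small Maf protein, fell at 6 h (-0.50 ± 0.084 in GS and -0.45 ± 0.084 in WT), and Mafk rose in GS at 6 h (0.78 ± 0.15) and 15 d (0.45 ± 0.15). Btrc, which encodes a ubiquitin ligase subunit that also targets Nrf2, fell at 3 d (-0.39 ± 0.076 in GS and -0.22 ± 0.076 in WT) and at 15 d (-0.45 ± 0.076 in GS and -0.30 ± 0.076 in WT). In all, 3 of 9 rose and 1 fell in GS at 6 h (all genes 7.47% and 6.37%), and 2 rose and 1 fell in WT (2.54% and 1.55%). At 3 d, 2 rose and 2 fell in GS (18.6% and 16.4%), close to the shares of all genes, and 2 rose and 1 fell in WT (14.7% and 12.7%). At 15 d, 3 rose and 3 fell in GS (19.4% and 17.6%), and 2 rose and 1 fell in WT (14.2% and 11.2%). The median log2 fold changes lay between -0.04 and 0.12. Gsk3b (-0.42 ± 0.086) and Nfe2l1 (-0.17 ± 0.059) completed those that fell in GS at 15 d.

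Among 12 related thiol enzymes and partners, Prdx6 and Prdx4, further peroxiredoxin genes, and Slc3a2, whose product pairs with xCT in the cystine exchanger, rose late in both genotypes. Prdx6 had 364 and 391 CPM in GS and 322 and 356 CPM in WT at 15 d, against 171 and 192 CPM in intact GS and 164 and 178 CPM in intact WT, and rose by 1.06 ± 0.086 in GS and 0.99 ± 0.086 in WT. Prdx4 rose by 1.19 ± 0.15 in GS and 0.80 ± 0.15 in WT at 3 d, and Slc3a2 by 0.50 ± 0.097 and 0.43 ± 0.097. Sod2, of a superoxide dismutase (-0.44 ± 0.083), Txn2, of a thioredoxin (-0.25 ± 0.058), and the peroxiredoxin gene Prdx3 (-0.24 ± 0.089) fell in GS at 15 d, and no gene of the list fell in WT at that time. The counts were 0 that rose and 1 that fell in GS and none in either direction in WT at 6 h, 3 and 3 in GS and 3 and 0 in WT at 3 d, and 4 and 3 in GS and 3 and 0 in WT at 15 d, and medians lay between -0.038 and 0.077. The shares of all genes that rose and fell at 6 h were 7.47% and 6.37% in GS and 2.54% and 1.55% in WT. At 3 d they were 18.6% and 16.4% in GS and 14.7% and 12.7% in WT. At 15 d they were 19.4% and 17.6% in GS and 14.2% and 11.2% in WT. Slc7a11 is also a target of the integrated stress response. Of 7 genes of that response, 2 rose in GS and 1 in WT at 6 h (all genes 7.47% and 2.54%), where none fell (6.37% and 1.55%). At 3 d, 2 rose and 1 fell in GS (all genes 18.6% and 16.4%), and 1 rose and none fell in WT (14.7% and 12.7%). At 15 d, 4 rose and 2 fell in GS (19.4% and 17.6%), and 1 rose and 1 fell in WT (14.2% and 11.2%). Medians lay between 0.029 and 0.34. Atf3, of a stress-induced transcription factor, had the largest change (4.19 ± 0.53 in GS and 4.43 ± 0.56 in WT at 3 d). Its mean CPM at 3 d was 6.125 in GS and 5.13 in WT. The intact means were 0.333 and 0.234, so the size of this change rests on low intact levels. The glutathione-degrading enzyme gene Chac1 fell in GS at 3 d (-0.87 ± 0.25) and 15 d (-1.04 ± 0.25).

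**Figure D4:**
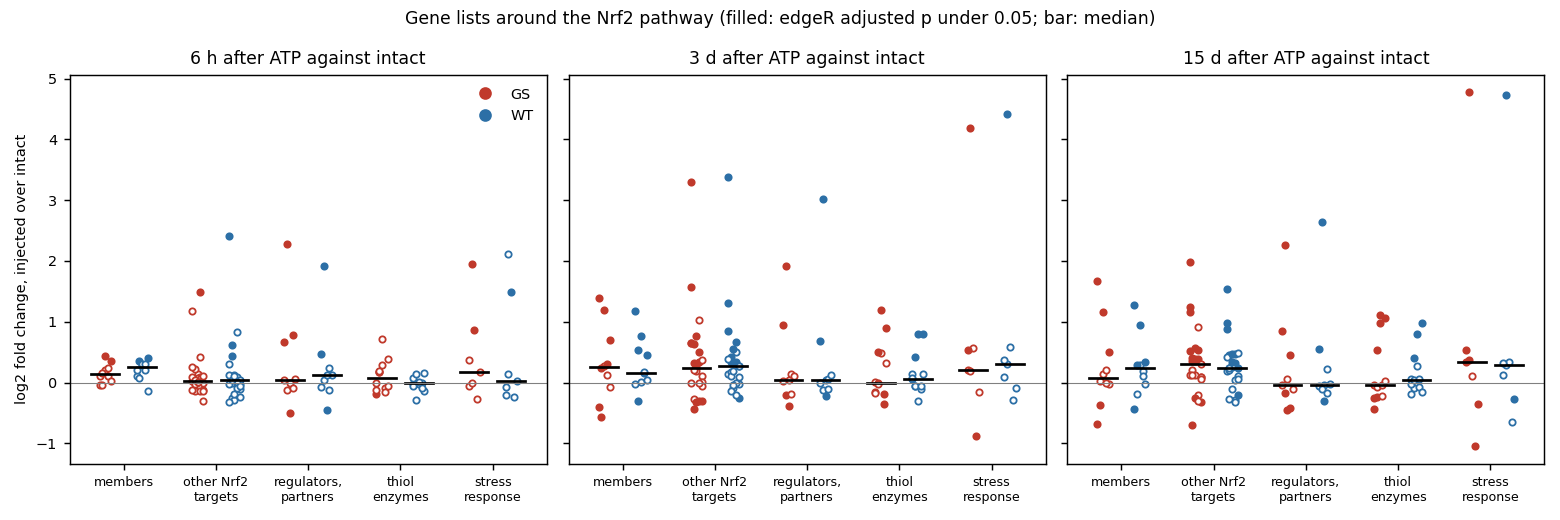
Log2 fold change after ATP against intact striatum of the same genotype (y axis) at 6 h, 3 d and 15 d for the 10 members and 4 lists around the pathway (x axis), GS left of WT, 1 point per gene, filled where the edgeR adjusted p is under 0.05, with a bar at the median. The medians stay within 0.4 of 0 in every list while single genes such as Atf3, Hmox1 and Maff lie far above.

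The tissue holds many cell types, and more cells of a type cannot be told apart from more RNA per cell. Myeloid markers moved with the late rise of Nfe2l2. Of all genes, 18.6% rose at 3 d and 19.4% at 15 d in GS, and 14.7% and 14.2% in WT. Of the phagocytic myeloid markers 6 of 8 are in the table, all 6 rose at 3 d and at 15 d in both genotypes, and they summed to 1060 to 1785 CPM in GS and 454 to 1010 CPM in WT at 3 d and 774 to 1207 and 314 to 768 CPM at 15 d, against 16.1 to 17.7 and 16.9 to 18.4 CPM intact. Homeostatic microglia markers, 10 of 10 in the table, summed to 800.4 to 1862 CPM at 3 d and 15 d against 437 to 459.9 CPM intact, and astrocyte markers, 8 of 8, to 5662 to 7264 against 4322 to 4501 CPM. Striatal neuron markers, 8 of 8, summed to 5147 to 6454 CPM at 3 d and 4902 to 5326 CPM at 15 d, against 6344 to 8114 CPM intact. The 3 d and intact ranges overlapped. At 3 d 6 of these 8 fell in GS and 1 in WT (all genes 16.4% and 12.7%). At 15 d 8 fell in GS and 5 in WT (all genes 17.6% and 11.2%). The part of these cells in the members' values was not tested.

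**Figure D5:**
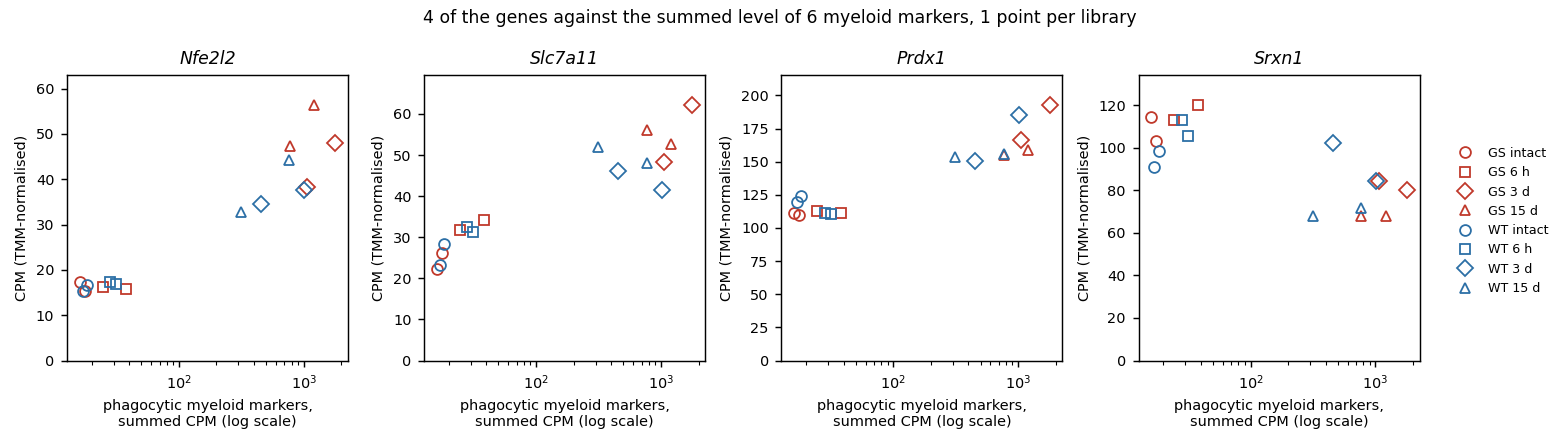
TMM-normalised CPM of Nfe2l2, Slc7a11, Prdx1 and Srxn1 (y axis, from 0) against the summed CPM of 6 phagocytic myeloid markers (x axis, log scale), 1 point per library, coloured by genotype and shaped by stage. The intact and 6 h libraries lie at 16.1 to 38.1 summed CPM and the 3 d and 15 d libraries at 314 to 1785. There Nfe2l2, Slc7a11 and Prdx1 are higher and most libraries have less Srxn1. Within the 4 groups at 3 d and 15 d, the library with the higher sum had more Nfe2l2 and more Prdx1 in 4 of 4. It had more Slc7a11 in 1 of 4 and more Srxn1 in 1 of 4. Of the members not drawn, Nqo1, which passed in no comparison, gave 4 of 4, and Gclm, Txnrd1 and Keap1 gave 3 of 4. Gsr gave 2 of 4 and Gclc 0 of 4. The homeostatic microglia sum gave the same counts. The astrocyte sum gave 3 of 4 for Nfe2l2 and Prdx1 and 2 of 4 for Slc7a11 and Srxn1.

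The genes whose log2 CPM over the 16 libraries was most like that of Nfe2l2, among all tested genes other than the members, were Acp5 (Pearson r = 0.993), Cd53 (r = 0.993), Fcgr3 (r = 0.993), Itpripl2 (r = 0.992) and Arl11 (r = 0.990). Cd53 encodes a leukocyte tetraspanin and Fcgr3 an Fc receptor of myeloid cells. Cd53 had 42.5 and 56.9 CPM in GS and 27.4 and 39.7 CPM in WT at 15 d, against 8.41 and 7.83 CPM in intact GS and 7.78 and 9.11 CPM in intact WT. For the mean of the 10 members, each scaled to unit variance, the most alike were Cnot1 (r = 0.909), Tgs1 (r = 0.909), Ncl (r = 0.903), Rgs16 (r = 0.903) and Fam160b1 (r = 0.895), and these r values were lower than those of Nfe2l2 with its 5. Libraries share their stage, so such r values describe the time course and carry no test.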

How the data were processed

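Striatal RNA of 16 mouse libraries, 2 for each of 8 groups, was sequenced, with RNA from RNeasy kits and TruSeq libraries, per the labels' protocols. The authors deposited 1 table of unnormalised counts by gene, per the file headers and the whole-number values. The submitters' processing notes name FastQC 0.11.7 and build mm10. The aligner, the counting tool and its strand setting are not given in these sources. Columns named NT were taken as WT by elimination. Every gene of the table has at least 1 count in every library, so genes silent in a library are not analysed here. The genes, lists and tests were chosen with earlier results of these data known.

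The tests used edgeR 4.0.16 (R 4.3.3). filterByExpr by group kept 18813 of 19457 genes, TMM normalised them (factors 0.947 to 1.03), and 1 quasi-likelihood fit of the 8 groups took in all 16 libraries, without covariates (8 residual degrees of freedom, common biological coefficient of variation 10.1%). Adjusted p-values are Benjamini-Hochberg over all genes tested, called under 0.05, in 16 contrasts. The standard error is the absolute log2 fold change over the square root of F. CPM is TMM-normalised. All 10 members are named, and of other lists up to 4 genes per direction with the largest change among those called. Exon length is the union of GENCODE M21 exons. The 3 most cortical libraries were named from an earlier report on these data. Alternatives were DESeq2 1.42.0, limma-voom from limma 3.58.1, RLE factors, no filter, a filter at a mean of 1 CPM, only the groups compared, a replicate block, a cortical marker covariate, and libraries left out. The fit was also run on simulated counts with changes set in the GS 3 d group only. Many changes called here, such as those of Gclc at 6 h, were smaller than any set there, so that run does not bear on them. Between replicates of a group, chi-square over its degrees of freedom was 9.72 to 32.6, more than counting error gives, so the spread between libraries limits precision more than depth does.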

Additional observations from a re-analysis of the deposited data

Results flagged for a closer look

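Prdx1 at 6 h lay on opposite sides of intact in the genotypes. Both GS libraries were above both intact GS libraries by little (112 and 112 CPM at 6 h against 109.8 and 111 CPM intact, log2 fold change 0.020 ± 0.087). Both WT libraries were below both intact WT libraries (110.5 and 111 CPM at 6 h against 119.7 and 124 CPM intact, log2 fold change -0.14 ± 0.087). Neither change passed, and the test of the difference between the responses did not pass either (0.16 ± 0.12, edgeR adjusted p = 0.747). The means at 6 h were close, at 112 CPM in GS and 110.8 CPM in WT, and the intact means were 110.5 and 122 CPM.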

How the results depend on the processing

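Of 35 calls of members over the 16 contrasts, all were kept with RLE factors, DESeq2, no filter, the stricter filter and the replicate block. Limma-voom lost 1, the cortical covariate 1, fitting only the groups compared 3 and leaving out the 3 WT libraries highest in cortical markers 4, and no called member changed direction in any alternative. Gains were 1 with DESeq2 and 2 with only the groups compared. Without those 3 WT libraries 0 members passed in WT at 6 h, against 2, in a fit with 1 library on each side. Leaving out single libraries gave 0 to 3 members called in GS and 0 to 3 in WT at 6 h, 5 to 7 and 4 to 5 at 3 d, 4 to 5 and 3 to 5 at 15 d, 6 to 7 between 6 h and 3 d, and 2 to 4 between 3 d and 15 d. A group left with 1 library is assumed to vary like the others. With the replicate number as a block the calls stayed at 2, 2, 7, 5, 5 and 5 in the injury comparisons, and the numbers are not shown to pair the samples, since deviations of same-numbered libraries correlated at -0.0991 to 0.174 over 28 pairs of groups. DESeq2 gave no adjusted p for 19 of the 30 differences between responses.

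Counts over all genes depended more on single libraries and settings. In WT at 6 h, 769 genes passed, with 63 to 1073 without single libraries, 1437 with DESeq2, 1482 with only these groups and 4 without the 3 WT libraries. In GS at 6 h the range without single libraries was 866 to 2959 (2605 in all), at 3 d 3928 to 6758 (6598) and at 15 d 4546 to 7277 (6972). In WT at 3 d it was 2414 to 5497 (5153; 2359 with the cortical covariate, 3216 with only these groups, 2178 without the 3 libraries), at 15 d 2264 to 5161 (4779; 2281 without the 3), and between 3 d and 15 d 1033 to 2909 (2601; 1190 with only these groups). Between genotypes 3, 1, 2 and 1 genes passed in intact striatum and at 6 h, 3 d and 15 d, where DESeq2 called 153, 57, 17 and 4, only the groups compared 1, 62, 0 and 4, and single omissions up to 26, 7, 142 and 2 (up to 5 for the average and up to 19, 46 and 0 for the responses). For the average DESeq2 called 78 (2 in edgeR) and for the differences between responses 122, 62 and 20 (2, 0 and 0 in edgeR). Other settings gave between 0 and 6 genes in these genotype comparisons. The cause was not tested. Members have at least 240 counts in every library, so depth limits them less than the 2 libraries per group.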
